A study of Mus musculus with 24 samples.

Results

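Mouse P19 embryonal carcinoma cells were compared after 2 h and 6 h of all-trans retinoic acid (ATRA, 1 µM) with cells given ethanol (EtOH), the solvent control, to describe the first genes that respond to retinoic acid. The comparison was chosen by the array titles and uses 6 of the 24 arrays of the series: 1 array at 2 h of ATRA, 1 array at 6 h of ATRA and 4 EtOH arrays, across 19938 genes with a symbol. P19 is an established line of embryonal carcinoma, the malignant counterpart of early embryonic stem cells, and was grown as a monolayer on gelatine. All arrays carry the same cell line with no genetic change named. The remaining arrays hold later ATRA times (24, 48 and 72 h) and, at the same 5 times with 1 array each, BMS753 (1 µM), BMS641 (0.1 µM) and BMS961 (0.1 µM), which the labels give as specific agonists of retinoic acid receptor α, β and γ. The EtOH arrays carry no time, so the agent and the time since the start of treatment cannot be told apart by the design. No ATRA array has a repeat at its time, and the 2 h and 6 h arrays stood as the repeats of early ATRA (n = 2 against n = 4). Whether the EtOH arrays are separate cultures is not stated, so their spread may be technical. The p-values rest on that spread and on how the 4 agents differ in their change from 2 h to 6 h.

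Retinoic acid enters the nucleus and binds retinoic acid receptors, which sit on DNA as heterodimers with retinoid X receptors. The pairs bind repeats of a hexamer, and binding of the ligand exchanges corepressors for coactivators, so that genes next to such repeats can be transcribed without new protein synthesis. Among the textbook targets of this kind are the receptor gene Rarb, the Cyp26 enzymes that degrade retinoic acid, Dhrs3, which returns retinal to retinol, and the Hox genes of the early paralogue groups.

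The medians of the 6 arrays lay between 6.502 and 6.564 on the log2 scale. Across genes, the log2 differences of an EtOH array from the mean of the remaining EtOH arrays had a standard deviation between 0.0795 and 0.111. For the ATRA arrays against the EtOH mean it was 0.14 at 2 h and 0.222 at 6 h. Pou5f1, a core pluripotency factor and marker of embryonal carcinoma, was bright on each of the 6 arrays. It lay between 12.85 and 12.99 in EtOH and 0.10 and 0.05 above the EtOH mean at 2 h and 6 h. Nanog, a further marker of these cells, was much dimmer, with values given below. The marker lists of 7 other cell types (neural progenitor, neuron, endoderm effectors, mesoderm and cardiac muscle, neural crest, fibroblast and smooth muscle, trophoblast) had 102 measured genes, of which 6 rose and 7 fell, beside 4.5% and 2.11% of all genes tested. The mean level of the neural progenitor list was 7.197 to 7.251 in EtOH, 7.16 at 2 h and 7.313 at 6 h, and that of the neural crest list was 6.502 to 6.551, 6.443 and 6.611. None of the 16 endoderm effector genes and none of the 13 mesoderm and cardiac genes passed the test (limma). In such bulk samples, fewer cells of a type and less RNA per cell cannot be told apart.

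Within 6 h of ATRA more genes rose than fell, and the rises were the larger changes. Called genes, those with a Benjamini-Hochberg adjusted p under 0.05 in limma's two-sided test over all genes, numbered 1318, or 6.61% of those tested. Of these, 897 rose (4.5%) and 421 fell (2.11%); under quantile normalization 812 rose and 568 fell. A change of at least 2-fold was reached by 69 of the called rises (0.346%) and 6 of the called falls (0.0301%). The largest rise was 3.78 log2 units and the largest fall was −1.42. Both ATRA arrays lay above every EtOH array for 853 of the called rises (4.28%) and below every EtOH array for 391 of the called falls (1.96%). The count rests on the 6 h array: with the 2 h array alone standing for ATRA 376 genes were called, and with the 6 h array alone 1588. With all 24 arrays in the fit, whose spread also holds the later courses of the 4 agents, 171 genes were called (0.858%), 164 higher and 7 lower.

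Rarb, the gene of retinoic acid receptor β, rose most. Its log2 values in the EtOH arrays were 6.89, 6.90, 7.06 and 7.02, and they were 10.08 at 2 h and 11.42 at 6 h of ATRA. The difference from the EtOH mean was already 3.12 at 2 h, an 8.67-fold higher level, and reached 4.45, or 21.8-fold, at 6 h. The mean early change was 3.78 ± 0.13 (SE of the fit; adjusted p = 2.16e-11). Cyp26a1, the main enzyme that inactivates retinoic acid in the embryo, stood at 6.20, 6.05, 6.50 and 6.41 in EtOH, at 8.84 at 2 h and at 10.46 at 6 h. Its early rise was 3.36 ± 0.20 (adjusted p = 1.05e-08). For both genes the ATRA arrays were far above every EtOH array, and the 6 h array was the higher of the pair.

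Of the 15 largest rises, 8 had a promoter entry in RefSeq, and Rarb and Cyp26a1 were the only ones of these 8 that hold a direct repeat of the receptors' hexamer with 5 bases between, the spacing of the classical retinoic acid response element. The 150 bases before each start are shown because both genes have the repeat close to it. The hexamers of the repeat are in capitals, the Rarb stretch is chr14:16575477-16575626 on the minus strand and the Cyp26a1 stretch is chr19:37697658-37697807 on the plus strand (RefSeq, GRCm38.p6), and both are written along the gene's own strand.
Rarb: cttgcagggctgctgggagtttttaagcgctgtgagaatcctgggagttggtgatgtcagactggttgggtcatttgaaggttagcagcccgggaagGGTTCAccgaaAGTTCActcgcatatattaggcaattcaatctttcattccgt
Cyp26a1: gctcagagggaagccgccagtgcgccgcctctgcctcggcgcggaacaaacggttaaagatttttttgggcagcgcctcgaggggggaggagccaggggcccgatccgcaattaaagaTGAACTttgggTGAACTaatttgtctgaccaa
The Rarb repeat, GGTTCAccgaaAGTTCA, spans bases −53 to −37 from the start, and the Cyp26a1 repeat reads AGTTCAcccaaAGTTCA on the opposite strand, at bases −32 to −16. The search accepted AGGTCA, the consensus hexamer of these receptors, as well as the related GGGTCA. It also accepted AGTTCA, as well as the form GGTTCA, the hexamers of the long known Rarb element, so that the match in Rarb was given by the choice of hexamers. Any of these could stand on either side of the spacer and on either strand, in windows from 250 bases before to 50 bases after each start, and repeats with different spacers can overlap. Such a repeat with 5 bases between was in 32 of 32851 windows (0.0974%) and in 11 of the 15614 tested genes with an entry (0.0704%). It was in 2 of the 8 largest rises with an entry, in 2 of 717 genes called higher and in 0 of 310 genes called lower. With 2 bases between, the repeat was in 88 of 32851 windows (0.268%) and in 14 of the 15614 tested genes with an entry (0.0897%). It was in 5 of 717 genes called higher (0.697%) and in 0 of 310 called lower. The 5 genes were Ano1, Casd1 and Ide, with rises of 0.35, 0.20 and 0.18, and a larger pair: Slc45a3, a membrane transporter gene with an early rise of 1.13 ± 0.08 (adjusted p = 8.75e-08), and Tinagl1, which encodes a secreted matrix protein and rose by 0.88 ± 0.13 (adjusted p = 0.000201); the 5 were named after their values were seen. The call of Tinagl1 was lost with the 2 h array alone and with all 24 arrays. A match of letters is a description of the window and no evidence of binding.

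**Figure D1:**
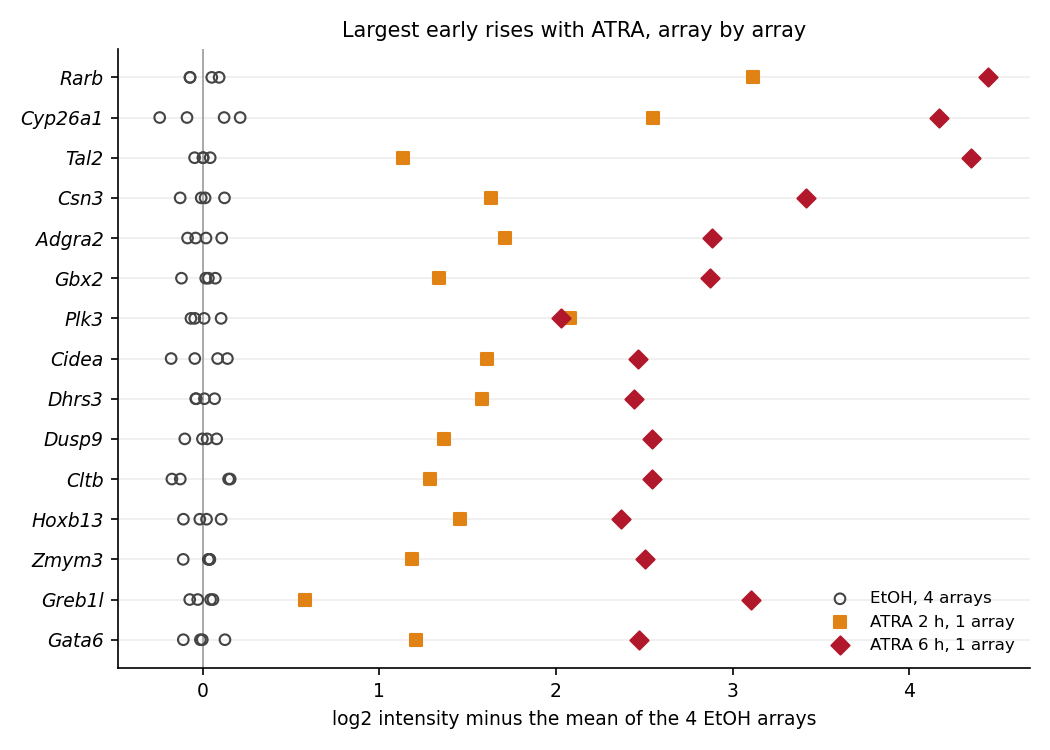
Log2 intensity minus the mean of the 4 EtOH arrays (x axis) for the 15 largest early rises (y axis), with open circles for the EtOH arrays, squares for ATRA at 2 h and diamonds for ATRA at 6 h. Every ATRA point lies above every EtOH point of its gene, as the rule that picked these genes required. The 6 h point is the higher in 14 of the 15 genes, Plk3 being the exception.

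The genes that clear, sense and carry retinoids moved unevenly. Of the 4 genes for retinoic acid clearance and retinal reduction, 3 rose, beside 4.5% of all genes tested. Dhrs3 stood between 8.71 and 8.81 in the 4 EtOH arrays, at 10.33 at 2 h and at 11.19 at 6 h, a rise of 2.01 ± 0.11 (adjusted p = 7.45e-09). Cyp26b1, a second enzyme of retinoic acid clearance, was late within this window: its EtOH values were 6.81 to 7.08, its 2 h value was 7.18 and its 6 h value 8.81. Its call (1.01 ± 0.23, adjusted p = 0.00986) was lost with the 2 h array alone, with robust moderation and with all 24 arrays. Cyp26c1 changed by −0.06 (adjusted p = 0.808).

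Of the 6 retinoid receptor genes, 3 rose, beside 4.5% of all genes tested. Rara, which encodes receptor α, was tightly grouped in EtOH at 8.98 to 9.01 and reached 9.74 at 2 h and 9.92 at 6 h, a rise of 0.84 ± 0.05 (adjusted p = 1.68e-08). Rxrg, which encodes a heterodimer partner, had 9.05 to 9.39 in EtOH, 9.77 at 2 h and 10.45 at 6 h, a rise of 0.89 ± 0.08 (adjusted p = 2.02e-06), a call lost with all 24 arrays. The changes of Rarg, Rxra and Rxrb were −0.08, −0.02 and 0.11, and none passed the test (adjusted p = 0.457, 0.936 and 0.351). The rise in Rxrg did not last, as its difference from the EtOH mean was −0.99 at 24 h and −3.74 at 48 h, whereas Rarb was 4.65 to 4.73 above the EtOH mean from 24 to 72 h.

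Of 14 measured genes for retinoid uptake, binding and synthesis, 1 rose and 3 fell, beside 4.5% and 2.11% of all genes tested. Crabp2, a carrier that hands retinoic acid to the receptors, rose by 0.44 ± 0.07 (adjusted p = 0.000506), with nearly equal values of 8.30 and 8.28 at both times against 7.79 to 7.91 in EtOH. Rdh10, the dehydrogenase that makes retinal for retinoic acid synthesis, fell by 0.50 (SE 0.08, adjusted p = 0.000551), from 9.05 to 9.13 in EtOH to 8.90 at 2 h and 8.28 at 6 h. Rdh11, a retinal reductase, and Fabp5, a fatty acid carrier that also binds retinoic acid, fell by 0.21 and 0.24. With all 24 arrays none of these 4 calls held, and those of the 3 falls were lost with the 2 h array alone as well. Stra6, the membrane receptor for retinol uptake, was 0.07 above the EtOH mean at 2 h and 0.50 at 6 h and did not pass the test (adjusted p = 0.0825). Among 11 nuclear receptor cofactors, Nrip1, a corepressor that binds liganded receptors, rose by 0.98 ± 0.05 (adjusted p = 4.1e-09), with the same height at both times (10.55 and 10.56 against 9.48 to 9.64), and the coactivator Ncoa3 rose by 0.40 ± 0.05 (adjusted p = 3.74e-05); of this pair Nrip1 alone kept its call with all 24 arrays.

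Over the 20 measured genes of a list of other known early retinoid targets, 9 rose and 2 fell, against 4.5% and 2.11% of all genes. The falls were Egr2 (−0.47) and Tbx1 (−0.36). With all 24 arrays 4 genes of the list rose and 1, Egr2, fell. The list's median change was 0.12 beside −0.01 over all genes tested. The list was chosen with earlier results of these data known and is not independent evidence of its direction. Gbx2, a homeobox gene of the anterior hindbrain, had 6.90 to 7.09 in EtOH, 8.36 at 2 h and 9.90 at 6 h, a rise of 2.11 ± 0.21 (adjusted p = 4.12e-06). Gata6, an endoderm transcription factor, rose by 1.84 ± 0.17 (adjusted p = 2.02e-06), with 7.40 to 7.63 in EtOH, 8.71 at 2 h and 9.98 at 6 h. Foxa1, a pioneer factor of endoderm and floor plate, rose by 1.80 ± 0.22 (adjusted p = 2.73e-05), from 5.68 to 6.03 in EtOH to 6.92 and 8.47. Greb1l, a coregulator needed for kidney and inner ear formation, was mostly a 6 h gene: it stood at 7.49 to 7.62 in EtOH, 8.14 at 2 h and 10.67 at 6 h (1.84 ± 0.20, adjusted p = 7.56e-06). Gata6 and Foxa1 rose while no gene of the endoderm effector list did. Stra8, the gene that starts meiosis in germ cells under retinoic acid, and Tgm2, a transglutaminase, were just past the threshold (adjusted p = 0.0451 and 0.0438), at 0.72 and 0.67 above EtOH at 6 h and 0.05 at 2 h, and both calls were lost on leaving out EtOH array 1, 3 or 4.

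A minority of the Hox genes of early and of late paralogue groups rose, mostly by under 2-fold, and the largest change was at the far end of the HoxB cluster. Of 14 measured genes of paralogue groups 1 to 5, the groups that pattern the hindbrain and neck, 5 rose and 0 fell: Hoxa5 (0.68), Hoxa2 (0.55), Hoxb1 (0.53), Hoxb2 (0.50) and Hoxd4 (0.26). In each the 6 h array was the further from EtOH, as for Hoxa5, which stood at 5.46 to 5.73 in EtOH, 5.80 at 2 h and 6.74 at 6 h. Hoxb2 was already 0.32 above the EtOH mean at 2 h. With the 2 h array alone, and with all 24 arrays, 0 of these 14 genes rose; Hoxa5 went on to 4.32 above EtOH at 24 h and Hoxb1 to 3.83. The call of Hoxa2 was also lost with robust moderation and on leaving out EtOH array 1, 2 or 3. That of Hoxd4 was lost under quantile normalization and on leaving out EtOH array 1, 3 or 4. Of 23 measured genes of groups 6 to 13, which pattern the trunk and tail, 3 rose and 0 fell: Hoxb13 (1.91), Hoxd8 (0.56) and Hoxb9 (0.32). The call of Hoxd8 was lost with all 24 arrays, with robust moderation and on leaving out EtOH array 2 or 4. Over all genes tested 4.5% rose and 2.11% fell.

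Hoxb13, the most posterior gene of its cluster, had 6.57, 6.53, 6.65 and 6.44 in EtOH, 8.01 at 2 h and 8.92 at 6 h, a rise of 1.91 ± 0.13 (adjusted p = 4.23e-08). It was brief: its difference from EtOH was 0.15 at 24 h, −0.37 at 48 h and 0.23 at 72 h. Next to it among the measured genes lies the microRNA gene Mir196a-1, whose mature product targets Hox messenger RNAs. Its RefSeq mature sequence (GRCm38.p6, chr11:96265187-96265208, plus strand) is shown with the seed, bases 2 to 8, in capitals, because this gene rose beside Hoxb13.
miR-196a-5p: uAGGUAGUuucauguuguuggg
The probe set of Mir196a-1 had 5.60, 5.42, 5.35 and 5.42 in EtOH, 6.77 at 2 h and 6.35 at 6 h, a rise of 1.11 ± 0.11 (adjusted p = 4.15e-06). Its peak came at 2 h, and it was at −0.33 from EtOH at 24 h. The genes on either side of this pair moved less: Ttll6, before Hoxb13, rose by 0.33 (adjusted p = 0.0163), Hoxb9 by 0.32 (adjusted p = 0.0213), and Hoxb7 changed by 0.03 (adjusted p = 0.919). Mir196a-1 and Ttll6 were picked for their position after their values were seen, and a probe set of a precursor does not measure the mature microRNA. Hoxb13 and Mir196a-1 kept their calls with all 24 arrays; Ttll6 and Hoxb9 did not.

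Among 13 TALE and Cdx homeobox genes, 3 rose and 1 fell, beside 4.5% and 2.11% of all genes tested. The TALE products are partners of Hox proteins on DNA. Meis2 had 6.91 to 7.09 in EtOH, 7.52 at 2 h and 9.78 at 6 h, a rise of 1.63 ± 0.26 (adjusted p = 0.000502; the call was lost with robust moderation). Pbx2 rose by 0.55 ± 0.07 and Meis1 by 0.38 ± 0.09. Of the 4 calls, those of Meis2 and Pbx2 held with all 24 arrays. Tgif1, a repressor that competes for retinoid X receptor sites, fell by 0.40 (SE 0.04, adjusted p = 8.79e-06), with 10.44 and 10.42 at both times against 10.78 to 10.90 in EtOH.

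The other large rises came from genes of varied function, and most stood at more than 2-fold by 2 h. Plk3, a stress-responsive polo-like kinase, had the smallest adjusted p of the named genes (2.92e-12): its EtOH values were 8.79, 8.89, 8.72 and 8.74, and it stood at 10.87 at 2 h and 10.82 at 6 h, a rise of 2.06 ± 0.06 that was complete at the first time. Adgra2, an adhesion G protein-coupled receptor of brain vessels, had 6.90 to 7.09 in EtOH, 8.69 at 2 h and 9.87 at 6 h (2.30 ± 0.12, adjusted p = 3.24e-09). Csn3, the gene of the milk protein κ-casein, had 4.84 to 5.09 in EtOH, 6.59 at 2 h and 8.38 at 6 h (2.52 ± 0.19, adjusted p = 1.41e-07). Cidea, a lipid droplet protein, had 6.05 to 6.37 in EtOH, 7.84 and 8.70 with ATRA (2.04 ± 0.12, adjusted p = 1.01e-08), and was at −0.28 from the EtOH mean at 24 h.

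Tal2, a basic helix-loop-helix factor of midbrain neurons, showed the steepest climb between the times. It was flat in EtOH at 4.35 to 4.44, stood at 5.53 at 2 h and reached 8.75 at 6 h, so that its fold over EtOH went from 2.2 to 20.4. Its mean early rise was 2.74 ± 0.41 (adjusted p = 0.000255); the call was lost with robust moderation and with all 24 arrays. Tal2 was 4.55 above EtOH at 24 h and 0.22 at 48 h. The potassium channel gene Kcnh1 was alike in timing, with 5.69 to 5.94 in EtOH, 6.31 at 2 h and 8.76 at 6 h (1.73 ± 0.27, adjusted p = 0.000374), and lost its call under the same alternatives. Dusp9, a phosphatase of ERK kinases, rose by 1.96 ± 0.14, the clathrin light chain gene Cltb by 1.91 ± 0.14 and the zinc finger gene Zmym3 by 1.85 ± 0.13, with adjusted p no higher than 0.000255 in any of the 15. With all 24 arrays 12 of the 15 kept their call; Tal2, Cltb and Greb1l did not. The rule passed over the clone names 2610528J11Rik (2.41 ± 0.18) and A730049H05Rik (1.81 ± 0.10), the first of which lies within the range of the 15 and the second just under its lowest, 1.84.

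Between 2 h and 6 h most changes grew. At 2 h 34 genes were at least 2-fold higher than the EtOH mean and above the EtOH range (0.171%), and 3 were 2-fold lower and below it (0.015%). At 6 h the counts were 127 (0.637%) and 16 (0.0802%). Of the 34 genes, 30 were past 2-fold at 6 h as well. The other 4, named after their values were seen, were Lefty1, Nodal, Mir196a-1 and Rusc2, all higher at 2 h than at 6 h. Plk3, Elavl3 and Gadd45b also had their higher value at 2 h. Among called genes, 764 of 897 rises and 379 of 421 falls were further from EtOH at 6 h. With 1 array a time these are values without a test.

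**Figure D2:**
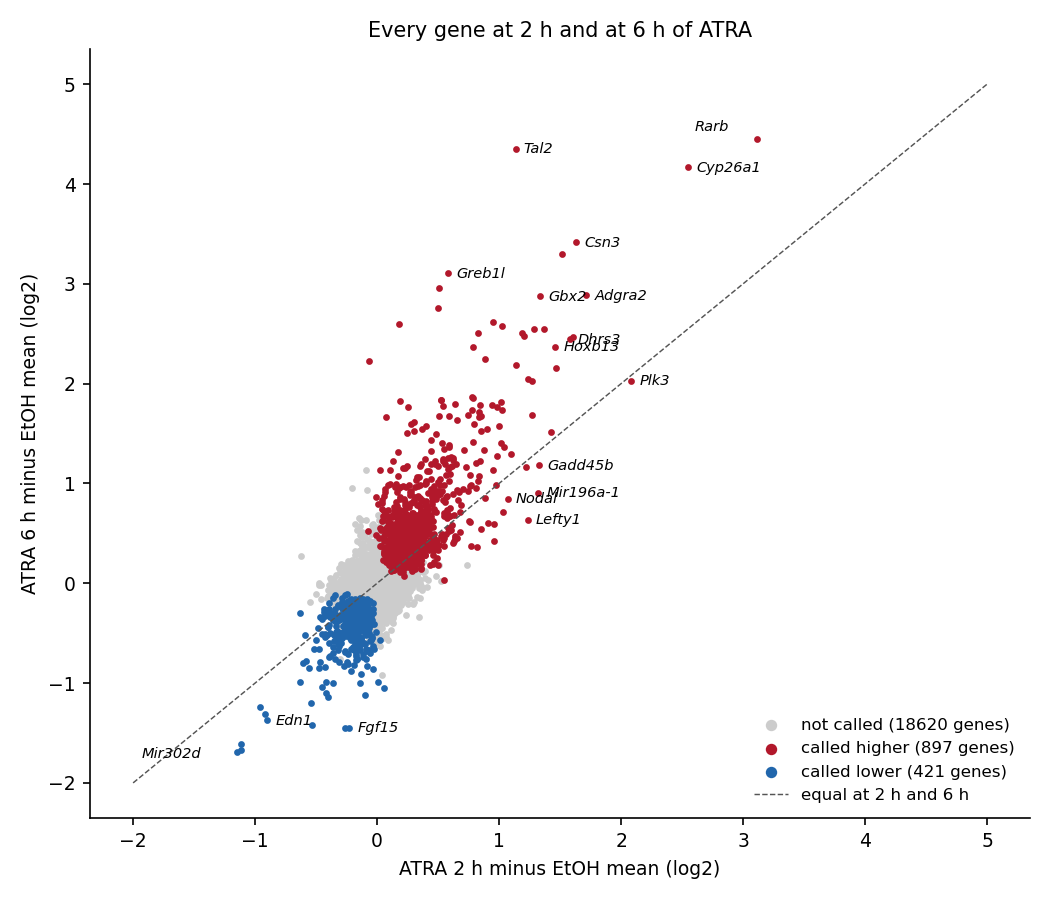
Difference from the EtOH mean at 2 h (x axis) and at 6 h (y axis), log2 scale, 1 point per gene, coloured by the call over both times; the dashed line marks equal differences. Most called genes lie further from 0 at 6 h, Tal2 and Greb1l stand far above the line, and Plk3, Gadd45b, Mir196a-1, Nodal and Lefty1 lie below it.

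The falls were smaller than the rises. Small RNAs aside, which the rule for named genes passed over and which include the largest falls, Edn1 and Fst, both genes of secreted proteins, fell most. Edn1, the vasoactive peptide endothelin 1, had 7.26, 7.23, 7.20 and 7.16 in EtOH, 6.31 at 2 h and 5.84 at 6 h, a fall of 1.14, stated as a log2 change of −1.14 ± 0.08 (adjusted p = 8.51e-08). Fst, the activin antagonist follistatin, had 9.26, 9.03, 9.33 and 9.39 in EtOH, 8.33 at 2 h and 7.94 at 6 h (−1.12 ± 0.09, adjusted p = 5.34e-07). Both genes were well below every EtOH array by 2 h. Fgf15 and Oprk1 were slower: Fgf15, a growth factor of the early brain and gut, had 10.28 to 10.45 in EtOH, 10.11 at 2 h and 8.89 at 6 h (−0.84 ± 0.12, adjusted p = 0.000111), and Oprk1, the κ opioid receptor, had 7.20 to 7.63, 7.15 and 5.96 (−0.86 ± 0.15, adjusted p = 0.00152).

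Fgf5, a growth factor of the primed pluripotent state, fell by 0.81, the cytokine gene Tgfb3 by 0.77 and the proto-oncogene Myc by 0.70. Myc had 10.49 to 10.59 in EtOH, 9.94 at 2 h and 9.75 at 6 h (SE 0.06, adjusted p = 6.9e-07). The protease inhibitor gene Timp4 fell by 0.87, the interleukin receptor gene Il20ra by 0.76 and the prostaglandin receptor gene Ptger4 by 0.68, and Pxdc1, Samd5, Vrtn, Vstm2a and Rassf5 by between 0.68 and 0.97. All 15 were further from EtOH at 6 h. With all 24 arrays only Ptger4 of the 15 kept its call; Fgf15 and Oprk1 lost theirs with the 2 h array alone as well. At 72 h Edn1 was 1.87 and Fgf5 1.77 above the EtOH mean, on the other side of it.

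The 3 genes already 2-fold lower at 2 h all belong to 1 locus, the miR-302 cluster. It also holds Mir367, lies inside Larp7 in RefSeq and encodes a microRNA family typical of pluripotent cells. They were singled out after their values were seen. Mature sequences on chromosome 3 from RefSeq (GRCm38.p6) are shown, 1 for each gene of the cluster, the 5p arm for Mir302a and the 3p arm for the others. The seed, bases 2 to 8, is in capitals. miR-302b-3p and miR-302d-3p share the seed AAGUGCU, that of miR-302c-3p is offset by a base, and miR-367-3p has another.
miR-302a-5p: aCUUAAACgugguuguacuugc
miR-302b-3p: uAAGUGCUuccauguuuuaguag
miR-302c-3p: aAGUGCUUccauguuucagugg
miR-302d-3p: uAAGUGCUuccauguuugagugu
miR-367-3p: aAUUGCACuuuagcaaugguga
Probe sets of these genes measure the precursor, not the mature form. Mir302d had 8.05, 7.92, 7.77 and 7.72 in EtOH, 6.71 at 2 h and 6.17 at 6 h (−1.42 ± 0.15, adjusted p = 5.63e-06). Mir302c had 7.05 to 7.38, then 6.13 and 5.57 (−1.39 ± 0.16, adjusted p = 1.45e-05), and Mir302a had 7.22 to 7.85, then 6.31 and 5.81 (−1.36 ± 0.18, adjusted p = 7.5e-05). Mir302b was more variable in EtOH, at 5.41 to 6.30, and stood at 5.02 and 4.74 (−1.10 ± 0.20, adjusted p = 0.00216). Mir367 had 4.15 to 4.70, then 3.92 and 3.73 (−0.57 ± 0.11, adjusted p = 0.0022). All 5 were below every EtOH array at both times. They are the only 5 of 287 microRNA genes tested that fell, while 4 rose, beside 2.11% and 4.5% of all genes tested. Neither count is above the share over all genes. Larp7 itself had 10.60 to 10.71 in EtOH, 10.63 at 2 h and 10.47 at 6 h (−0.12 ± 0.05, adjusted p = 0.243). All 5 lost the call with all 24 arrays, and Mir302b and Mir367 also with the 2 h array alone.

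The precursors were also low at 2 h with the other agents. Mir302d was at −1.18 with BMS753, −0.77 with BMS641 and −1.04 with BMS961, beside −1.15 with ATRA. Mir302a was at −1.39, −1.17 and −1.04, beside −1.11 with ATRA. For neither gene was ATRA the agent furthest from EtOH at 2 h. Doses differ between these agents, and all are set against the same EtOH arrays. By 72 h of ATRA the difference of Mir302d from EtOH was −3.41.

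**Figure D3:**
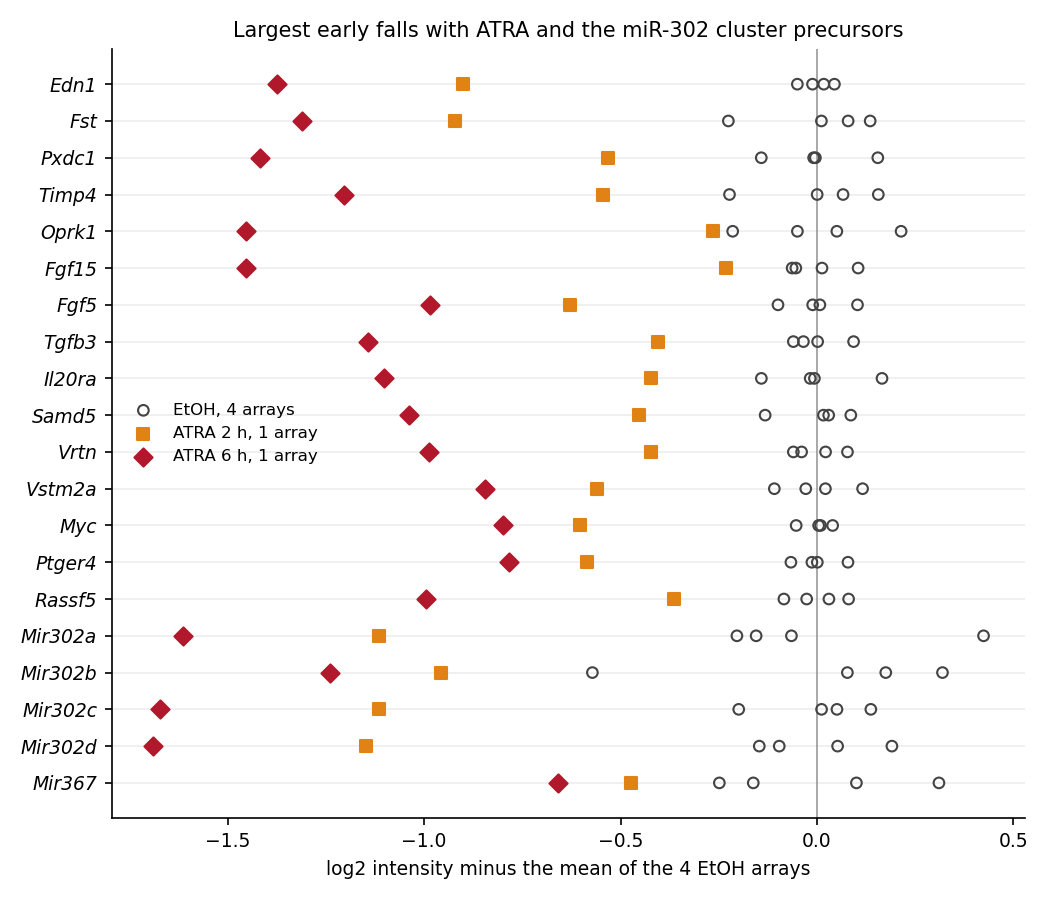
Log2 intensity minus the EtOH mean (x axis) for the 15 largest early falls and the 5 precursors of the miR-302 cluster (y axis), drawn as for the rises. Every 6 h diamond lies left of its 2 h square, and the EtOH circles of Mir302a and Mir302b spread wider than those of Edn1 or Myc.

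The pluripotency genes did not fall together. Of 31 measured members 5 rose and 6 fell, beside 4.5% and 2.11% of all genes, and the list's median was −0.01, as over all genes. Nr0b1, a corepressor of the pluripotency network also called Dax1, had 10.66 to 10.81 in EtOH, 11.98 at 2 h and 12.78 at 6 h (1.64 ± 0.06, adjusted p = 7.47e-11). Nanog, a core pluripotency factor, had 8.82 to 8.91 in EtOH, 9.63 at 2 h and 9.84 at 6 h (0.88 ± 0.07, adjusted p = 1.57e-07). The DNA methyltransferase gene Dnmt3a rose by 0.90, the T-box gene Tbx3 by 0.70 and the core factor Sox2 by 0.22. L1td1, Dnmt3l, Sall4, Utf1, Otx2 and Dnmt3b fell by between 0.19 and 0.35. Pou5f1 changed by 0.07 (adjusted p = 0.294) and Tdgf1, the Nodal co-receptor, by 0.03 (adjusted p = 0.877). None of the 11 calls held with all 24 arrays, and with the 2 h array alone the 5 rises held and none of the falls did. The early rises of Nanog and Nr0b1 were followed by differences from EtOH of −3.41 and −3.97 at 48 h, when that of Pou5f1 was −4.28.

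The Nodal ligand and its inhibitors peaked early. Of 14 genes for the Nodal pathway and mesendoderm, 3 rose and 1, Fst, fell, beside 4.5% and 2.11% of all genes tested. Nodal, which patterns the early embryo, had 9.22 to 9.54 in EtOH, 10.49 at 2 h and 10.26 at 6 h (0.96 ± 0.08, adjusted p = 2.22e-07). Lefty1, a secreted Nodal inhibitor, had 10.30 to 10.48 in EtOH, 11.63 at 2 h and 11.04 at 6 h (0.94 ± 0.07, adjusted p = 1.79e-07), and Lefty2, its close relative, rose by 0.83 ± 0.08. Lefty1 and Lefty2 are closely similar neighbours, so their probe sets may share signal. The calls of all 4 were lost with all 24 arrays.

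Other pathways moved by less, and their counts stand beside 4.5% of all genes tested that rose and 2.11% that fell. Of 21 genes for FGF ligands and FGF-ERK feedback, 7 rose (Spred1 0.60, Fgfr4 0.56, Dusp4 0.52, Spred2 0.40, Spry4 0.32, Etv5 0.30 and Fgfr2 0.28) and 5 fell (Fgf15, Fgf5, Fgf8, Etv1 and Dusp6). The risers are mainly feedback inhibitors and receptors, and the fallers include 3 ligands. Of these 12 only Fgfr4 kept its call with all 24 arrays, and Dusp6 also lost its call without EtOH array 1, 3 or 4 and with either ATRA array alone. Of 16 Notch genes 0 rose and 5 fell: the ligand gene Jag1 (−0.50), the target genes Hes1 (−0.47), Hey2 (−0.41) and Hey1 (−0.38), and the modifier Lfng (−0.32). Hes1 had 9.37 to 9.66 in EtOH, 9.17 at 2 h and 8.95 at 6 h (SE 0.07, adjusted p = 0.000336), and was the only one of the 5 called with all 24 arrays; none was called with the 2 h array alone. The Notch list's median was −0.16, beside −0.01 over all genes. Of 15 BMP and TGF-β genes, Bmp7 (0.56) and Smad6 (0.51) rose and Id1 (−0.35) and Bambi (−0.23) fell. Of 18 Wnt genes, Wnt8a (0.61) rose and Rspo3 (−0.48) and Fzd10 (−0.29) fell. None of these BMP, TGF-β and Wnt calls held with all 24 arrays.

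Genes of p53 targets and apoptosis had 6 of 13 measured members rising, beside 4.5% of all genes, and a median of 0.12. None fell, and 2.11% of all genes did. After Plk3 the largest were Trp53inp1, a p53-induced autophagy and stress gene, and Gadd45b, a stress sensor. Trp53inp1 had 9.23 to 9.42 in EtOH, 10.13 at 2 h and 11.02 at 6 h (1.28 ± 0.10, adjusted p = 1.25e-07). Gadd45b had 7.52 to 7.77, then 8.97 and 8.83 (1.25 ± 0.09, adjusted p = 1.09e-07). Plk2 (0.54), Gadd45a (0.36) and Sesn2 (0.21) rose by less. With the 2 h array alone 4 of the 13 rose and 1 fell. Plk3 and Trp53inp1 kept their calls with all 24 arrays, and Sesn2 lost its call with the 6 h array alone, under quantile normalization and on leaving out EtOH array 1, 3 or 4. Of 24 immediate early genes, the fast targets of growth factor signals, 3 rose (Ier2 0.38, Atf3 0.34 and Jund 0.31) and 5 fell (Myc, Ier3 −0.47, Klf10 −0.34, Egr1 −0.28 and Btg2 −0.26). Of 20 cell cycle genes 0 rose and 2 fell, the cyclin D genes Ccnd1 (−0.39) and Ccnd2 (−0.23). None of the immediate early and cell cycle calls held with all 24 arrays. Of 13 genes for ATF4 and amino acid stress 3 rose and 2 fell (1 and 2 under quantile normalization), and of 6 heat shock genes 1 rose and 1 fell.

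Of the neuron list, 3 of 19 genes rose and 3 fell, beside 4.5% and 2.11% of all genes tested. The largest rise was Elavl3, a neuronal RNA-binding protein, with 7.99 to 8.15 in EtOH, 9.28 at 2 h and 9.23 at 6 h (1.19 ± 0.07, adjusted p = 1.05e-08), followed by Gap43 (0.50) and Ebf1 (0.37). The neurofilament genes Nefl (−0.55) and Nefm (−0.37) and the microtubule gene Stmn2 (−0.30) fell. At 24 h the difference of Elavl3 from EtOH was −0.76. Of 21 neural progenitor genes Sox3 rose (0.34) and En2 fell (−0.29), and of 11 neural crest genes Tfap2c rose (0.75) and Foxd3 (−0.57) and Snai2 (−0.36) fell. Under quantile normalization 2 neural crest genes rose and 1 fell. The fibroblast and trophoblast lists gave 1 call each, Pdgfrb (0.38) and Ascl2 (−0.56). None of these 13 calls held with all 24 arrays.

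**Figure D4:**
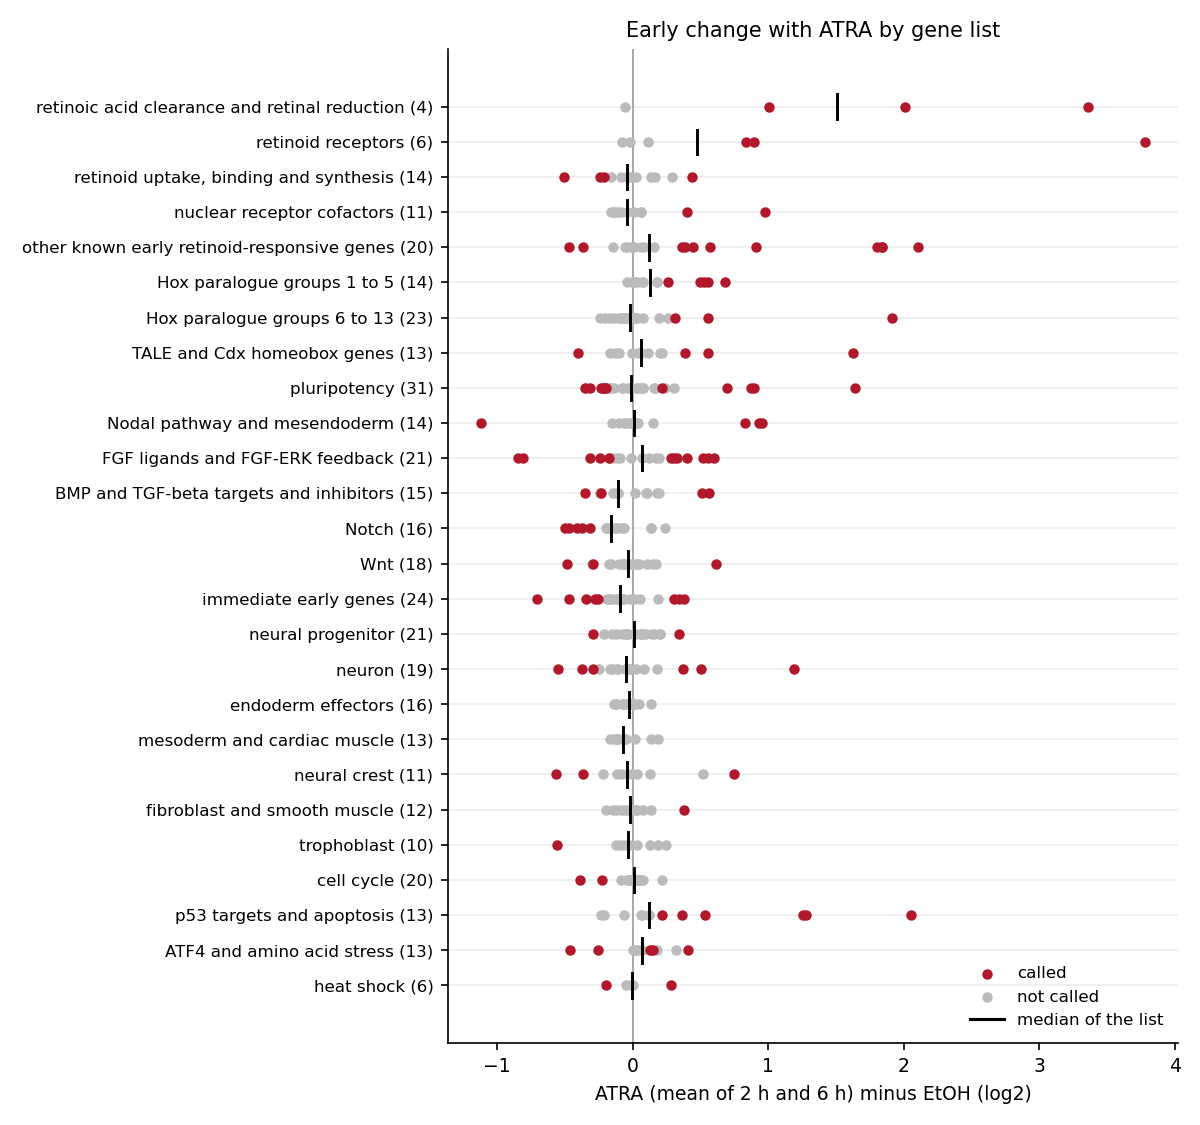
Early ATRA change against EtOH (x axis, log2) for every measured member of the 26 lists (y axis, members measured in brackets), dark for called genes, with the list's median as a bar. The clearance list has the highest median, the Notch list has called members on the left side alone, and the endoderm and mesoderm lists have no called member.

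BMS753, the receptor α agonist, was the only other agent at 1 µM, and its 2 h and 6 h arrays were set directly against those of ATRA, the only pair of agents compared. ATRA was higher for 25 genes (0.125%) and lower for 12 (0.0602%), in all 37 (0.186%). The 6 largest differences above BMS753 were in Cyp26a1 (1.78 ± 0.23, adjusted p = 0.00698), Gbx2 (1.28 ± 0.24, adjusted p = 0.0446), Hoxb13 (0.94 ± 0.15, adjusted p = 0.0189), Cidea (0.94 ± 0.14, adjusted p = 0.0139), Sertad4 (0.82 ± 0.14, adjusted p = 0.0351) and Adgra2 (0.75 ± 0.14, adjusted p = 0.0417). Cyp26a1 stood 2.55 above EtOH at 2 h and 4.17 at 6 h with ATRA, and 1.12 and 2.03 with BMS753. Rara, Nanog, Plk3 and Nr0b1 were also called higher with ATRA, by 0.39, 0.52, 0.41 and 0.39. Of the 15 largest rises, 6 were called higher with ATRA; these genes were picked on the same ATRA arrays, which favours such a difference.

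For Rarb and Dhrs3 the difference from BMS753 missed the threshold: it was 0.74 for Rarb (95% interval, not adjusted over genes, 0.41 to 1.07; adjusted p = 0.0647) and 0.64 for Dhrs3 (0.36 to 0.92; adjusted p = 0.0587). A p that misses the threshold does not show that the agents act alike. Crabp2 differed by 0.02 (−0.15 to 0.19) and Hoxb9 by −0.05 (−0.25 to 0.14). For the miR-302 precursors the difference was −0.39 for Mir302d (−0.75 to −0.03; adjusted p = 0.248) and −0.12 for Mir302a (−0.56 to 0.31).

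Among the genes lower with ATRA than with BMS753, Edn1 (−0.50 ± 0.09, adjusted p = 0.0417) and Pdp1, a pyruvate dehydrogenase phosphatase (−0.39 ± 0.07, adjusted p = 0.0417), fell with ATRA against EtOH as well, as did Osr1, a kidney transcription factor (−0.52 ± 0.09, adjusted p = 0.0376). Usp17ld (−0.65), Ifnab (−0.52) and Tmprss11e (−0.39) were not called against EtOH with ATRA, and Usp17ld stood 0.49 and 0.44 above EtOH with BMS753. Usp17ld and Ifnab belong to multigene families whose probe sets may share signal. The counts of this comparison depend on few arrays: without EtOH array 1, 2, 3 or 4 they were 71, 74, 12 and 14. With all 24 arrays 0 genes were called by limma (1923 at an unadjusted p under 0.05). Under quantile normalization 27 of 31 called genes were higher with ATRA (87.1%), beside 67.6% in the fit above, and Gbx2, Edn1, Ifnab, Osr1, Tmprss11e and Pdp1 lost their calls. With robust moderation Cyp26a1, Gbx2, Hoxb13, Adgra2, Sertad4 and Nr0b1 lost theirs.

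The 0.1 µM agents differ from ATRA in dose and receptor at once, so their values are set beside those of ATRA with no comparison. At 6 h Rarb was 4.45 above the EtOH mean with ATRA, 3.52 with BMS753, 1.37 with BMS961 and 0.34 with BMS641. At 6 h Cyp26a1 was at 4.17, 2.03, 0.50 and −0.03, and Dhrs3 at 2.44, 1.69, 0.77 and 0.47. Hoxb13 was at 2.37, 1.07, 0.58 and 0.63 at the same time, and Plk3 at 2.03, 1.53, 0.68 and 0.54. Fst, among the falls, stood at −1.31, −0.94, −0.53 and −0.48. Later ATRA arrays parted these genes: Dhrs3 was 2.86 above EtOH at 72 h, whereas Cyp26a1 went from 4.71 at 24 h to 0.93 at 72 h and Csn3 from 5.01 to 1.96.

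**Figure D5:**
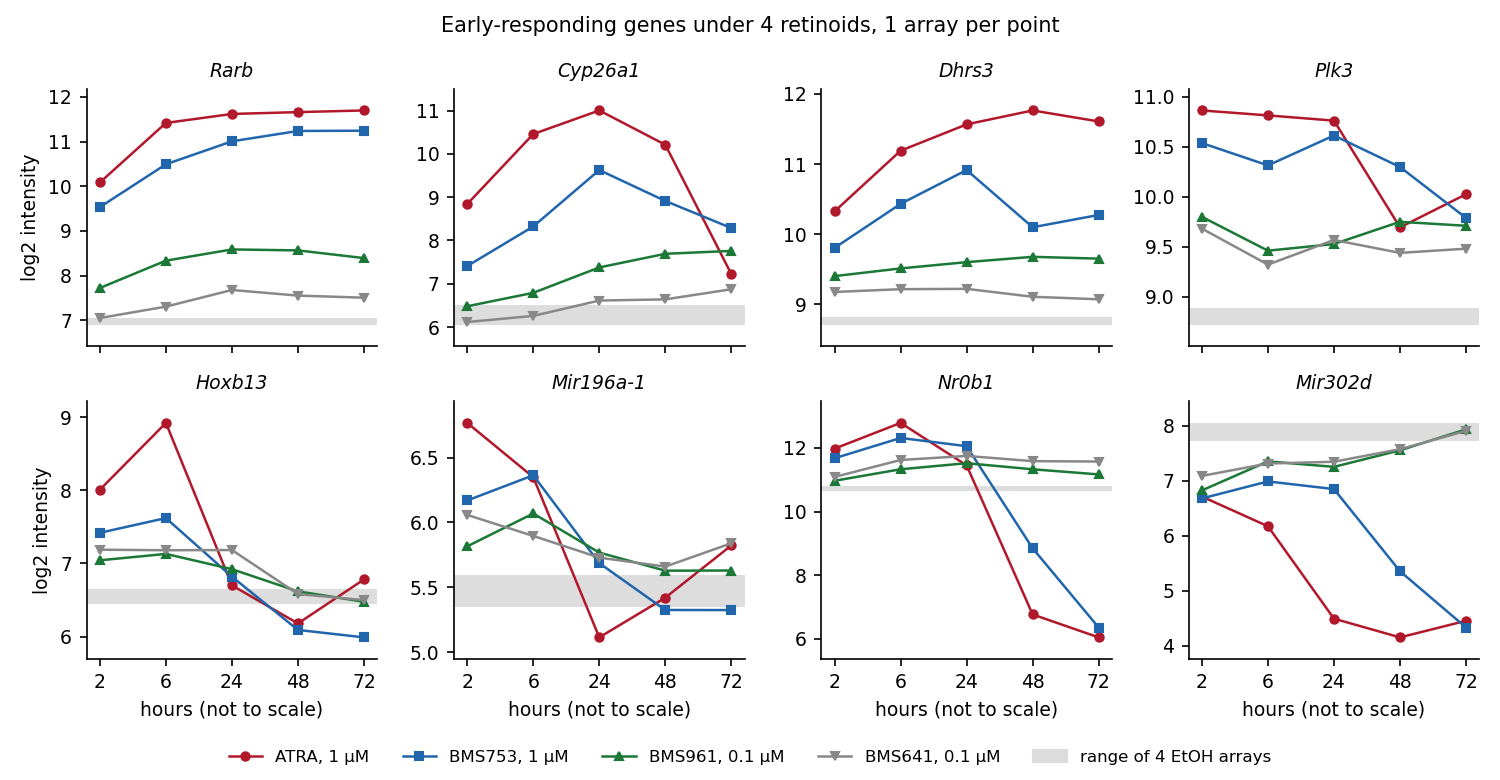
Log2 intensity (y axis) of 8 early-responding genes against time in hours (x axis, not to scale) under ATRA and BMS753 (1 µM) and BMS961 and BMS641 (0.1 µM), 1 array per point, with the range of the 4 EtOH arrays in grey. Rarb and Dhrs3 stay high with ATRA to 72 h, Hoxb13 and Mir196a-1 are back near or below the grey band at 24 h, and Nr0b1 rises before it falls.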

How the data were processed

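RNA of P19 cells was hybridised to Affymetrix Mouse Gene 1.0 ST arrays, per the labels' protocols. The authors deposited 1 log2 intensity for each probe set and array, made with Affymetrix Expression Console 1.1, per the submitters' processing notes. How background, summarization and normalization were handled there is not named in the labels. The log2 scale was judged from the range, 2.859 to 14.303. No further normalization was done. Of 35556 probe sets, 21789 had 1 gene symbol in the platform annotation, 1621 had several and 12146 were unnamed here; 21698 matched a gene ID of the RefSeq table (GRCm38.p6), which changed 0 symbols. For 999 genes with several probe sets the one with the highest mean was kept, giving 19938 genes, with no filter on dim ones. Precision is limited by how few arrays there are.

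The test was limma 3.58.1 in R 4.3.3 (lmFit, eBayes with trend), two-sided, with Benjamini-Hochberg adjustment over all genes. The fit held the 4 EtOH arrays and the 2 h and 6 h arrays of the 4 agents (12 arrays), with a time term shared by the agents (6 residual and 10.5 prior degrees of freedom). Late arrays were left out because differences between agents at late times are no error of early values. Differences between the agents in their change from 2 h to 6 h do enter the spread of this fit. Single times have no test in this fit. Calls given for the 2 h or the 6 h array alone come from an alternative fit. There a single array stood for ATRA, so ATRA had no spread of its own. Those calls are weak evidence of whether a change was present at that time.

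Members, the 26 lists (417 genes, 398 measured) and the tests were chosen with earlier results of these data known. The rule for named genes took the 15 largest called rises and falls whose ATRA arrays both lay beyond the EtOH range, the 6 largest at each time and against BMS753, and any list member; predicted or clone-named transcripts and small RNAs were passed over, except those said to be chosen after their values were seen. Alternatives were all 24 arrays, only the groups compared, no time term, the EtOH spread alone and leaving out each EtOH array in turn. Others were quantile normalization, averaging the probe sets of a gene and leaving out the dimmest 33.3% of genes. Robust moderation, a 1.2-fold threshold (treat) and a 1.5-fold limit at single times were run as well. The last alternative set 1 ATRA time alone against EtOH, or against BMS753 at the same time.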

Additional observations from a re-analysis of the deposited data

Results flagged for a closer look

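Among the EtOH arrays of 141 genes named here, 4 values stood apart from the other 3 by more than Dixon's 95% limit for 4 samples allows. Chance alone flags about 1 group in 20, a share that these 4 values do not exceed. These were Rarg in EtOH array 4 (9.1053 on the log2 scale), Hoxb9 in EtOH array 1 (7.5519), Zmym3 in EtOH array 4 (7.7501) and Fgf8 in EtOH array 4 (8.0767), each the lowest of its group. Among the 13767 probe sets without a single gene symbol, which no comparison used, 2 were at least 2-fold higher than EtOH at both 2 h and 6 h and above the EtOH range, and 0 were 2-fold lower.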

How the results depend on the processing

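The check of direction covered 141 of the genes named in the text, and no called gene among them reversed under any alternative. Several alternatives could not reverse a direction, because they leave the log2 change itself the same. These were all 24 arrays, only the groups compared, no time term, the EtOH spread alone, robust moderation and the 1.2-fold threshold. The 1318 genes called against EtOH became 171 with all 24 arrays and 742 with only the groups compared and no time term. They became 239 with a 1.2-fold threshold. Leaving out 1 EtOH array gave 1013 to 1388. Setting 1 ATRA time alone against EtOH gave 376 at 2 h and 1588 at 6 h. There ATRA had no spread of its own, so these counts do not show the effect of leaving an array out. Of the 37 genes called against BMS753, 0 were left with all 24 arrays. With only the groups compared 0 were left (2611 at an unadjusted p under 0.05, limma), and 0 with the 1.2-fold threshold (85). The count was 1 with no time term, 24 with robust moderation and 196 with the EtOH spread alone. Leaving out 1 EtOH array gave 12 to 74. Setting ATRA against BMS753 at 1 time alone gave 5 at 2 h and 202 at 6 h, again with no spread within ATRA. At single times a 1.5-fold limit gave 122 genes at 2 h and 432 at 6 h, and leaving out 1 EtOH array gave 34 to 36 and 144 to 151. The cause of these shifts was not tested. No paired analysis was possible because only the EtOH arrays carry replicate numbers.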
